A study of Homo sapiens with 9 samples.

Results

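TXNIP, ARRDC4, IRS2, CCNG2, PIK3IP1, SESN1, SESN3, BCL6, INSR and KLF9 are 10 genes, most of them known as targets of FOXO transcription factors. Such targets are high in cells that lack growth factors. They were chosen by name, from this knowledge and with earlier results of these data known, so their counts below are not independent of the data. All 10 were found among the 19869 genes of the H460-ERT2-RUNX3-K94/171R libraries, and 1 of them, TXNIP, could be read among the 24331 genes of the H460 and H460-ERT2-RUNX3 libraries, where the other 9 were not analysed here.

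FOXO factors are held in the cytoplasm when insulin or serum factors activate PI3K and AKT, and they enter the nucleus and switch on their targets when these signals are lost. The targets slow the cell cycle, restrain mTORC1 and raise the cell's sensitivity to insulin again, so that several of them feed back on the pathway that silences FOXO. TXNIP and ARRDC4 answer in addition to MondoA, a transcription factor that senses sugar phosphates and binds pairs of E-boxes, the carbohydrate response element.

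The 9 libraries of mRNA came from H460 and from stable lines made from it that carry ERT2-RUNX3 wild type or ERT2-RUNX3-K94/171R. H460 is a human large cell lung cancer line with activated K-RAS, inactive RUNX3, and wild-type ARF and p53. ERT2 is a form of the estrogen receptor's ligand-binding domain that keeps a protein joined to it in the cytoplasm as long as 4-hydroxytamoxifen (4-OHT) is absent, and in K94/171R the lysines at 94 and 171 of RUNX3 are arginines, which removes the interaction with BRD2. Each line was starved of serum for 24 h and collected 0, 8 or 16 h after 10% serum and 1 μM of 4-OHT were added, so the 0 h library is the starved cell, and serum and 4-OHT cannot be told apart within a line. The labels name the control line H460, and the study's methods describe the control as H460-vec, a stable transfectant with vector. Whether each stable line grew from 1 clone is not given in the sources used here. There was 1 library for each line and time. No difference below has a replicate check, and no test was run.

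Values are FPKM, fragments per kilobase of transcript, scaled to the mapped fragments of the library. A change is log2 of the ratio of 2 times in the same line after 0.05 FPKM was added to each, and a gene was called higher or lower when the change was at least 1 in size and FPKM was at least 1 in one of the libraries compared. RUNX3, the introduced gene, was at FPKM 2.12 in starved cells of the K94/171R line, at 0.712 after 8 h and at 2.11 after 16 h, a log2 change of -1.51 at 8 h against 0 h and of -0.01 at 16 h against 0 h. RUNX3 thus moved with several of the genes described below, and its part in their changes was not tested. These values are close to the FPKM of 1 needed for a call. They do not separate RNA of the introduced gene from that of the cell's own RUNX3. RUNX3 was not read in the other lines, so these values do not check the labels. Across genes, Pearson's r of log2 FPKM was 0.970 to 0.975 between the K94/171R libraries over 11390 genes, which are not independent replicates. KRT8, KRT18 and KRT19, keratins of simple epithelium, were at FPKM 309 to 698 in these libraries, and KRT7, from the same list, was at 3.01 to 4.88. EPCAM stayed between 0 and 0.313 and CDH1 between 0 and 0.0227, so these epithelial markers were near 0. Of the 10 markers of other cells that were found, COL3A1 at 5.60 to 8.26 and PDGFRB at 1.91 to 3.20 were the ones at FPKM of at least 1, and CD3E, CDH5, INS and NEUROD1 were among those listed at 0.

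The promoters of TXNIP, ARRDC4 and CCNG2 are shown because these were the genes called lower at 8 h in the K94/171R line. All 10 genes had a RefSeq promoter of GRCh38.p14, a window of 250 bases before and 50 bases from the transcription start on, and stretches before the start are printed with motif matches in capitals. In TXNIP (chr1:145996580-145996729, minus strand of that build), the first capitals are the FOXO motif GTAAACA and the second hold 2 copies of the E-box-like CACGAG with 5 bases between them. In ARRDC4 (chr15:97960453-97960538, plus strand) and CCNG2 (chr4:77157137-77157206, plus strand), the capitals are the E-box CACGTG.
TXNIP: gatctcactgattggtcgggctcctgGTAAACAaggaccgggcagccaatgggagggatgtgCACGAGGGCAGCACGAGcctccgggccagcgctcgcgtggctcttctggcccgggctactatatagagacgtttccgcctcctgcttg
ARRDC4: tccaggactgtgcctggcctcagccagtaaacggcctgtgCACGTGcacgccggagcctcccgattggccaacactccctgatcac
CCNG2: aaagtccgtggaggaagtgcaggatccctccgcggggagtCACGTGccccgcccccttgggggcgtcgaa

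Both strands of the windows were searched for the letters of each motif. The FOXO motif, GTAAACA or TGTTTAC, began 124 bases before the start of TXNIP, was found in 1 of the 10 windows and occurred in 3.41% of 27305 promoters. A pair of CACGNG, where N is any base, with 5 bases between the copies began 88 bases before the start of TXNIP, and 20 of all promoters (0.0732%) held it. It was added to the search after the TXNIP window had been read, and it can overlap the E-box. CACGTG, which reads the same on both strands, began 210 bases before the start of ARRDC4 and 30 bases before that of CCNG2. It was found in 2 of the 10 windows and in 7.43% of all promoters. For RUNX, the letters TGTGGT, or ACCACA on the other strand, were found in 0 of the 10 windows and in 13.1% of all promoters. Other forms of the RUNX site were not searched, among them GACCGCA, the site that the paper names in the ARF enhancer. The 0 therefore does not mean that the windows lack RUNX sites. A match describes letters and is no evidence of binding.

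In H460-ERT2-RUNX3-K94/171R cells, TXNIP, CCNG2 and ARRDC4 fell within 8 h of serum and 4-OHT, while IRS2 and INSR, which belong to the insulin pathway itself, were at 99.7% and 95.3% of the starved level. At 16 h the 10 genes lay between 57.1% and 176% of the starved level. In such bulk RNA, fewer cells with a transcript and less of it per cell cannot be told apart. The median log2 change at 8 h against 0 h was -0.63 over the 8 genes that reached FPKM 1 in one of these libraries, beside 0.01 over the 11252 genes tested, and -0.96 with PIK3IP1 and KLF9, which did not reach it. TXNIP, CCNG2 and ARRDC4, 3 of the 10, were called lower and 0 higher, beside 2.49% of all genes called lower and 1.27% called higher. At 16 h against 0 h the median was 0.18 over the 9 genes tested, and 0 of the 10 genes were called in either direction, beside 1.27% of all genes called lower and 1.47% called higher. At 16 h against 8 h the median was 0.93 over the 9 genes tested, and TXNIP, CCNG2, KLF9 and SESN1, 4 of the 10, were called higher and 0 lower, beside 2.66% of all genes called higher and 1.53% called lower. KLF9 reached FPKM 1 at 16 h alone, so it could be called in this comparison and not at 8 h against 0 h, and with a pseudocount of 1 its change was 0.87, short of the call. The 8 h library entered both of these comparisons, so a low value there gives a fall and a rise. Of the 11142 genes that could be called in both, 0.942% were called lower at 8 h and then higher at 16 h, and TXNIP and CCNG2 were the ones of the 10 that did both. By any amount, 8 of the 8 genes tested were lower at 8 h than at 0 h, beside 49.2% of all genes tested, and IRS2 among them was at 0.03 rather than 0.00 when the libraries were rescaled to a common FPKM sum, so that 1 of the 8 then lay above 0.

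**Figure D1:**
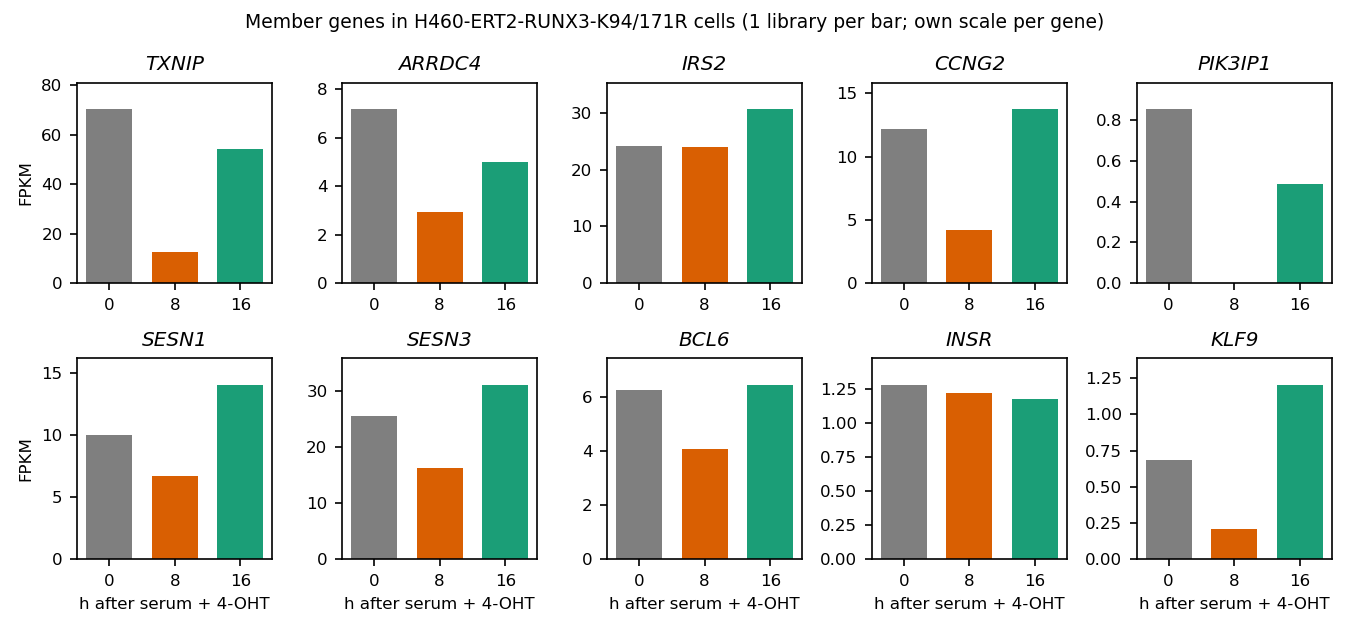
FPKM of the 10 genes in H460-ERT2-RUNX3-K94/171R cells at 0, 8 and 16 h after serum and 4-OHT, with 1 library per bar, bars from 0 and a scale of its own for each gene. The 8 h bar is the lowest in all panels but that of INSR, and in IRS2 it nearly equals the 0 h bar.

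The levels set the genes apart in starved cells. TXNIP had the highest FPKM at 0 h, 70.5, followed by SESN3 at 25.5, IRS2 at 24.1, CCNG2 at 12.2, SESN1 at 9.95, ARRDC4 at 7.21 and BCL6 at 6.27. INSR at 1.28, PIK3IP1 at 0.856 and KLF9 at 0.688 were the lowest. At 8 h IRS2 stood first, at 24.1, ahead of SESN3 at 16.3 and TXNIP at 12.7. Without replicates it cannot be said which neighbours in these orders differ beyond their spread.

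TXNIP and ARRDC4 belong to the alpha-arrestins, proteins that bind membrane receptors and glucose transporters and lower their number at the cell surface, and TXNIP also binds thioredoxin. TXNIP (ENSG00000265972, chromosome 1 of hg19, 145438490 to 145442635) was at FPKM 70.5 in starved cells, 12.7 after 8 h and 54.2 after 16 h. The 8 h library was the low one, at 18.0% of the starved level, and at 16 h TXNIP was back at 76.9%. Its log2 change of -2.47 at 8 h was at rank 29 from the lowest of the 11252 genes tested, and that of 2.09 at 16 h against 8 h was at rank 11243 of 11280. ARRDC4 (ENSG00000140450, chromosome 15, 98503933 to 98517063) had FPKM 7.21, 2.95 and 5.02 at the 3 times. It stood at 41.0% of the starved level at 8 h, a log2 change of -1.27, and at 69.7% at 16 h, so the return was smaller than the call threshold, with a change of 0.76.

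CCNG2 (ENSG00000138764, chromosome 4 of hg19, 78078360 to 78354542) encodes cyclin G2, an unusual cyclin that goes with cell-cycle exit and is a textbook FOXO target. It was at FPKM 12.2 in starved cells, 4.25 after 8 h and 13.8 after 16 h. The change was -1.51 at 8 h and 1.69 at 16 h against 8 h, and the 16 h level was 113% of the starved one. The annotated span reaches far beyond the other genes described here, at 276183 bases, and reads of genes that overlap it could not be told apart in FPKM.

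The insulin pathway genes did not move as one. IRS2 (ENSG00000185950, chromosome 13 of hg19, 110405042 to 110438930), the adaptor that links the insulin receptor to PI3K, was at FPKM 24.1 in starved cells, 24.1 after 8 h and 30.8 after 16 h, with changes of 0.00 at 8 h and 0.35 at 16 h against 0 h. INSR (ENSG00000171105, chromosome 19, 7112266 to 7294425), the insulin receptor, had FPKM 1.28, 1.22 and 1.18, and its changes lay between -0.12 and -0.05. Neither gene was called in any comparison. PIK3IP1 (ENSG00000100100, chromosome 22, 31677580 to 31688520), a membrane protein that inhibits PI3K, was listed at FPKM 0.856 in starved cells, at 0 after 8 h and at 0.489 after 16 h. The 8 h library was again the low one, but the gene stayed below FPKM 1 throughout.

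**Figure D2:**
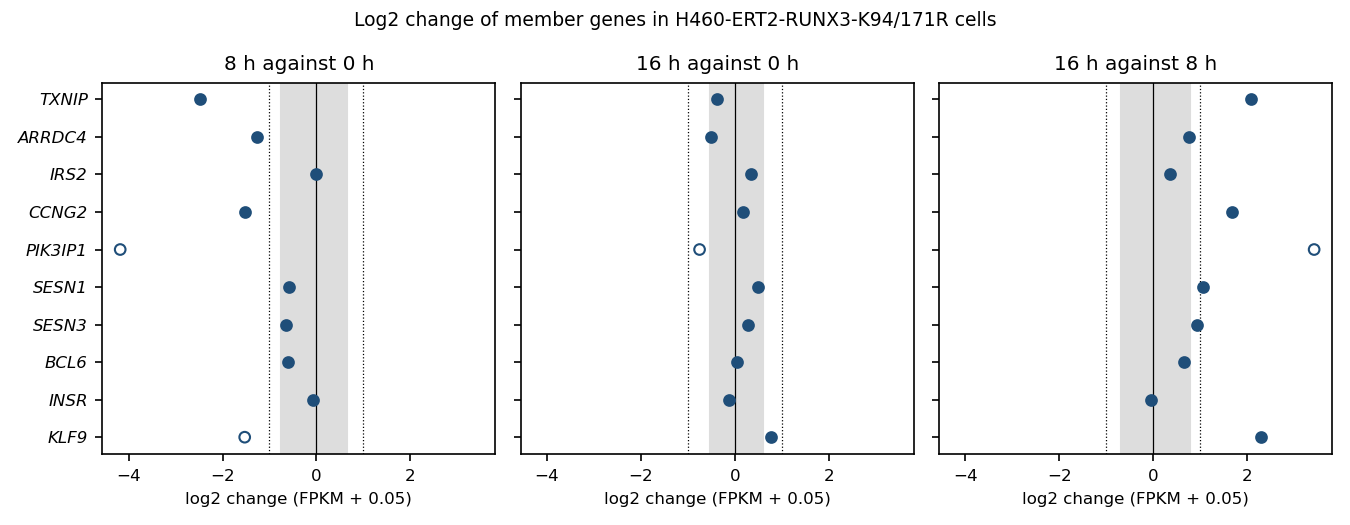
Log2 change (of FPKM + 0.05) of the 10 genes in H460-ERT2-RUNX3-K94/171R cells for the 3 comparisons of times, with filled points for genes of FPKM of at least 1 in one of the libraries compared, open points for the others, dotted lines at -1 and 1, and grey from the 5th to the 95th percentile of all genes tested. TXNIP, ARRDC4 and CCNG2 lie left of -1 at 8 h, all 10 lie between the dotted lines at 16 h against 0 h, and the open points of PIK3IP1, listed at 0 at 8 h, depend on the 0.05.

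SESN1 and SESN3 encode sestrins, stress proteins that inhibit mTORC1 when amino acids or growth factors run short. SESN1 is also known as a p53 target, and SESN3 as a FOXO target. SESN1 (ENSG00000080546, chromosome 6 of hg19, 109305512 to 109416049) was at FPKM 9.95 in starved cells, 6.66 after 8 h and 14.0 after 16 h, with changes of -0.58 at 8 h and 1.07 at 16 h against 8 h. SESN3 (ENSG00000149212, chromosome 11, 94898677 to 94965705) had FPKM 25.5, 16.3 and 31.1, with changes of -0.64 and 0.93 in the same comparisons. Both were lowest at 8 h and highest at 16 h, and SESN1 passed the threshold in the return while SESN3 did not. Over all genes tested at 8 h, the 5th percentile of the change was -0.75, so both sestrins lay above it, whereas at 16 h against 8 h both lay beyond the 95th percentile of 0.79.

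BCL6 and KLF9 encode transcription factors, a repressor first known from germinal centre B cells and a Krüppel-like factor that glucocorticoids induce. BCL6 (ENSG00000113916, chromosome 3 of hg19, 187439165 to 187463513) was at FPKM 6.27 in starved cells, 4.09 after 8 h and 6.46 after 16 h, and its changes of -0.61 and 0.65 were not called. KLF9 (ENSG00000119138, chromosome 9, 72999520 to 73029573) had FPKM 0.688, 0.206 and 1.21. The change of 2.30 at 16 h against 8 h put it at rank 11251 of 11280 and was called. KLF9 entered that ranking through its 16 h value alone. Its change of -1.53 at 8 h came from libraries where it was below FPKM 1, so it was not counted among the calls.

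TXNIP allowed the 3 lines to be set side by side, and its course differed between them. In H460 cells, which carry no ERT2 fusion protein, TXNIP was at FPKM 22.5 in starved cells, 12.7 after 8 h and 15.6 after 16 h, with changes of -0.83 and -0.53 against 0 h that were not called. In H460-ERT2-RUNX3 cells it was at 18.6 in starved cells, 38.9 after 8 h and 65.9 after 16 h, changes of 1.06 and 1.82 against 0 h. TXNIP was thus lower than in the starved cell at both times in H460 and in K94/171R and higher at both times in H460-ERT2-RUNX3. Of all genes tested in H460-ERT2-RUNX3, 4.41% were called higher at 8 h and 20.6% at 16 h, so a change of this size was common in the 16 h library of that line. In H460, 0.843% were called lower at 8 h and 0.699% at 16 h.

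Against H460 at the same time, TXNIP in H460-ERT2-RUNX3 cells stood at 0.826 of the H460 level before serum, at 3.07 times that level after 8 h and at 4.23 times after 16 h. The change in H460-ERT2-RUNX3 exceeded that in H460 by 1.89 at 8 h and by 2.35 at 16 h on the log2 scale. A difference of at least 1 in this direction was found for 4.17% of 11851 genes at 8 h and for 19.9% of 12273 genes at 16 h. With the libraries rescaled to the same sum of FPKM, the change at 8 h in H460-ERT2-RUNX3 was 0.88, short of the call, and the difference from H460 was 1.70. The K94/171R libraries are in a table that the authors made separately, so their FPKM of 70.5, 12.7 and 54.2 stand beside those of the other lines without a ratio.

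**Figure D3:**
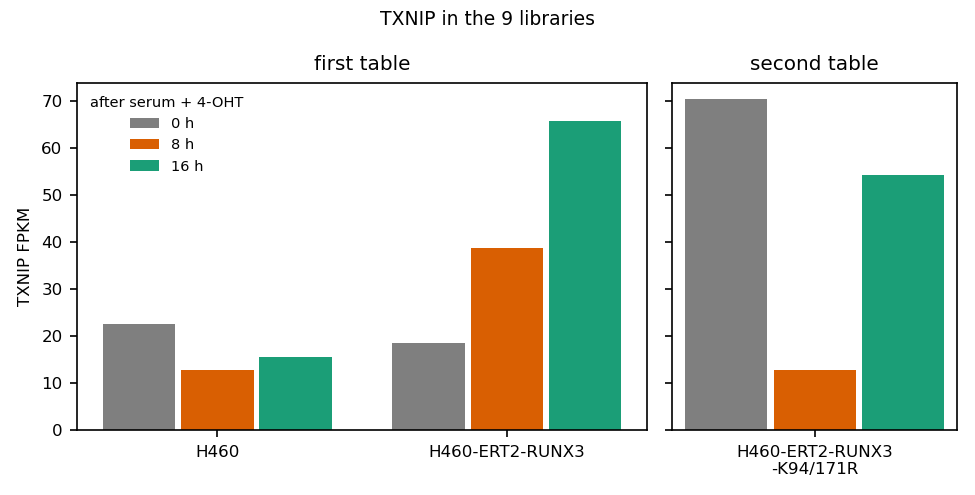
FPKM of TXNIP at 0, 8 and 16 h after serum and 4-OHT in H460 and H460-ERT2-RUNX3 cells (left, first table) and in H460-ERT2-RUNX3-K94/171R cells (right, second table, made separately), with 1 library per bar. The bars climb from 18.6 to 65.9 in H460-ERT2-RUNX3, and in the other lines the 8 h bar, at 12.7, is the lowest.

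Genes with a course like that of TXNIP were sought by the distance between their log2 changes at 8 h and 16 h against 0 h. Among the 8855 other genes that reached FPKM 5 in a K94/171R library, TSC22D3 was nearest, at a distance of 0.45, with FPKM 8.31, 2.01 and 6.70. TSC22D3 encodes GILZ, a leucine zipper protein that is induced by glucocorticoids and FOXO3. NUDT7 and TP53INP1 followed at 0.47 and 0.59, and RAB26, at rank 5, was at 0.72. NUDT7, a peroxisomal hydrolase of coenzyme A, had FPKM 6.33, 1.52 and 4.40, and RAB26, a small GTPase of vesicle traffic, had 10.5, 2.92 and 10.2. TP53INP1, a stress protein that takes part in autophagy, had FPKM 6.99, 1.24 and 8.10. Of the others of the 10 genes, CCNG2 was at rank 17 and ARRDC4 at rank 31. BCL6 at 421, SESN3 at 484, SESN1 at 835 and IRS2 at 4802 were farther off. Over all 9 libraries, 955 genes had a symbol in both tables, all on chromosome 1. The search could use 417 other genes among them, which reached FPKM 5 in a library of each table. The nearest, CLCN6, was at a distance of 2.17 over 6 changes. ATP8B2, CNST, SH3GLB1 and GGPS1 came next, none farther than 2.52, so none of these genes lay near the course of TXNIP in the 3 lines together.

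Of 23 genes of insulin, PI3K and FOXO signalling, 21 had FPKM of at least 1 in K94/171R cells at 0 h or 8 h, and their median change at 8 h was -0.14. FOXO3, one of the FOXO factors themselves, was the 1 gene of the 21 called lower, beside 2.49% of all genes, with FPKM 1.94, 0.862 and 1.94 and a change of -1.13. It was called higher at 16 h against 8 h, at 1.13, as was FOXO4 at 1.01, with FPKM 1.43, 0.762 and 1.59, which makes 2 of 21 beside 2.66% of all genes. FOXO1 had FPKM 4.16, 3.77 and 3.42 and was not called. AKT1, the kinase that phosphorylates FOXO factors, had 83.3, 103 and 86.9.

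Of 34 further FOXO targets, 32 were found in the K94/171R table, and 23 had FPKM of at least 1 at 0 h or 8 h. Their median change at 8 h was -0.50, with 4 genes called lower and 0 higher, beside 2.49% and 1.27% of all genes, and 19 of the 23 were lower by any amount, beside 49.2% of all genes. DEPP1, a peroxisomal regulator of autophagy, had the largest fall, from FPKM 1.38 in starved cells to 0.0842 after 8 h and 0.213 after 16 h. At 16 h against 0 h it was the 1 gene of 23 called lower, at -2.44, beside 1.27% of all genes. DEPP1 reached FPKM 1 in the starved library alone, so its calls rest on that value. TSC22D3 had the second largest fall at 8 h, at -2.02. BBC3, which encodes the pro-apoptotic protein PUMA, had FPKM 3.60, 1.63 and 5.84, and CDKN1A, which encodes the CDK inhibitor p21, had 146, 68.5 and 247. Both are p53 targets as well, and both were called lower at 8 h, at -1.12 and -1.09, and higher at 16 h against 8 h, at 1.81 and 1.85. PDK4, GABARAPL1 and ULK1 had changes of -0.79 to -0.90 at 8 h, short of the call. CAT, PCK1, TRIM63 and FASLG were listed at 0 in all 3 libraries.

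Of 26 growth arrest and circadian clock genes, 24 had FPKM of at least 1 at 0 h or 8 h in K94/171R cells, and their median change at 8 h was -0.75. In this list 10 genes were called lower and 0 higher, beside 2.49% and 1.27% of all genes, and 5 of the 10 were clock genes. At 16 h against 8 h, 8 of 23 were called higher, beside 2.66% of all genes. The largest fall was that of YPEL3, a gene of growth arrest and senescence, from FPKM 3.69 to 0.106 at 8 h, with 3.47 at 16 h. PER3 and PER2, repressors of the circadian clock, came next. PER3 had FPKM 1.91, 0.283 and 2.27, and PER2 had 2.28, 0.481 and 1.90. The clock genes PER1, NR1D1 and NR1D2 were called lower at 8 h as well, at -1.22, -1.18 and -1.37, and so were HBP1, YPEL2, YPEL5 and KLF11. BTG2, an antiproliferative p53 target, was the 1 gene of 24 called higher at 16 h against 0 h, beside 1.47% of all genes. Its change was 1.09, with FPKM 16.0, 9.49 and 34.1.

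Of 19 arrestin-domain, thioredoxin and MondoA genes, 17 were tested in K94/171R cells at 8 h, with a median change of 0.11. The other alpha-arrestins ARRDC1, ARRDC2 and ARRDC3 had changes of -0.32, 0.00 and 0.25 at 8 h, unlike the -1.27 of ARRDC4. MXD4, a MAX partner that opposes MYC, was the 1 gene of the 17 called lower at 8 h, beside 2.49% of all genes, with FPKM 13.0, 5.52 and 10.6. MLXIP, which encodes MondoA, had FPKM 11.7, 14.0 and 13.3, and its relative MLXIPL had 1.63, 0.800 and 2.51, which was called higher at 16 h against 8 h, at 1.59. SLC2A3, the glucose transporter GLUT3, was called higher at 16 h against 0 h and against 8 h, at 1.20 in both, with FPKM 33.4, 33.2 and 76.6. These make 1 of 17 called higher at 16 h against 0 h, beside 1.47% of all genes, and 2 of 17 at 16 h against 8 h, beside 2.66%. TXN, the thioredoxin that TXNIP binds, had FPKM 2875, 2537 and 2754.

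Of 30 nutrient sensing and autophagy genes, all 30 were tested in K94/171R cells and 0 were called in any of the 3 comparisons, with medians of 0.01 at 8 h and 0.04 at 16 h against 0 h. The list holds mTORC1 and AMPK subunits and TFEB, none of which was called. DDIT4, an mTORC1 inhibitor induced by stress, had FPKM 259, 320 and 301.

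**Figure D4:**
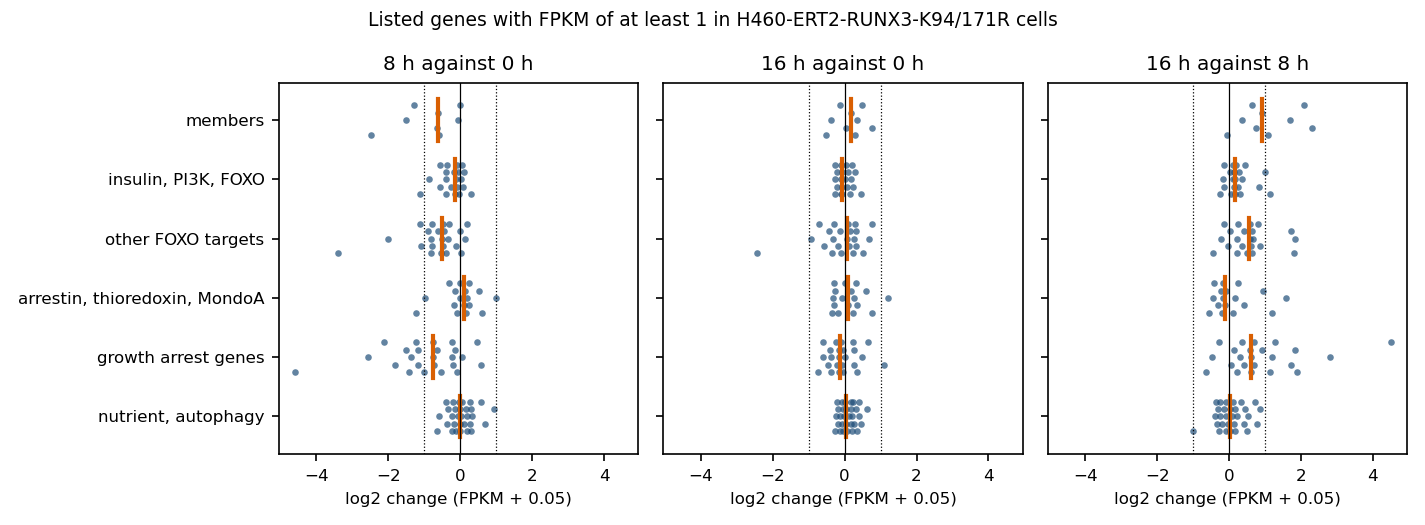
Log2 change (of FPKM + 0.05) in H460-ERT2-RUNX3-K94/171R cells of each listed gene with FPKM of at least 1 in one of the libraries compared, with 1 row per list (members are the 10 genes above), orange bars at the medians and dotted lines at -1 and 1. At 8 h the growth arrest list, which includes clock genes, and the other FOXO targets are shifted to the left, with medians of -0.75 and -0.50, and the nutrient and autophagy list is centred at 0.01.

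In the table of the other lines, few of these genes could be read. Of the further FOXO targets, SESN2, the sestrin induced by amino acid and oxidative stress, was called higher at both times in H460-ERT2-RUNX3 and at 16 h in H460, where 2.48% of all genes were. GADD45A, a stress gene that arrests the cell cycle, was called higher at both times in H460-ERT2-RUNX3. These make 2 of the 3 further FOXO targets tested in that line, beside 4.41% of all genes at 8 h and 20.6% at 16 h. In K94/171R cells SESN2 had changes of -0.40 at 8 h and 0.26 at 16 h against 0 h, and GADD45A of -0.47 and 0.33. PINK1, a kinase that marks damaged mitochondria, had FPKM 3.67, 2.69 and 6.40 in H460-ERT2-RUNX3 and 6.04, 3.52 and 3.16 in K94/171R. BTG2, the 1 growth arrest gene tested in these lines, had FPKM 5.07, 5.15 and 18.2 in H460-ERT2-RUNX3. It was called higher there at 16 h, beside 20.6% of all genes. In H460 it had 4.19, 5.64 and 4.93. Among the genes with values in all 3 lines, PER3 was below FPKM 1 in H460 and H460-ERT2-RUNX3 at all times, at 0.356 to 0.985.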

How the data were processed

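The authors deposited FPKM per gene for 9 libraries, 1 per line and time, in 2 tables made separately. According to the study's methods, Cutadapt trimmed the reads, STAR aligned them to the hg19 genome, and values came from the Cufflinks package; the submitters' processing notes name STAR 2.5.0 and Cuffdiff 2.2.1. Whether counting used the strand is not given in the sources used here. FPKM holds no reads, so depth is unknown. Steps between low values gave relative depths of 0.905 to 1.17 with 0 h of each line as 1, resting on 8 to 359 genes. A shallower library makes low FPKM less precise.

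Symbols for the K94/171R table came from Ensembl identifiers (19494 matched). For the other table, 1144 identifiers, all on chromosome 1, had a symbol in the readable portion of the supplementary table that pairs them, and 955 genes were matched between the tables. Gene positions are from GENCODE 44 lifted to GRCh37.

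Changes were computed with pandas 2.3.3 (Python 3.11.15) after a pseudocount of 0.05 was added, which understates changes of low genes, and calls were made at a log2 change of 1 with FPKM of at least 1. The rule was tested on simulated data. With 1 library per condition there was no statistical test. The 10 genes, the lists and the rules were chosen with earlier results of these data known. Named from each list were the genes called with the 3 largest rises and falls, and the 5 genes nearest to TXNIP, a few results being not reported here; further genes named for their role or as examples were chosen after their values were seen. A planned comparison of protein sequences was not run. Alternatives were other pseudocounts, rescaling, filters and a threshold of 2.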

Additional observations from a re-analysis of the deposited data

Results flagged for a closer look

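Against 0 h, TXNIP moved in opposite directions between lines under the same stimulation. Its log2 change against 0 h in H460-ERT2-RUNX3 was 1.06 after 8 h and 1.82 after 16 h, whereas it was -0.83 and -0.53 in H460 and -2.47 and -0.38 in H460-ERT2-RUNX3-K94/171R. The changes of -0.83, -0.53 and -0.38 were not called. At 16 h against 8 h TXNIP was higher in all lines, by 0.30 in H460, 0.76 in H460-ERT2-RUNX3 and 2.09 in H460-ERT2-RUNX3-K94/171R. With 1 library per line and time, these differences between lines were not tested.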

How the results depend on the processing

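No paired analysis was possible because each line and time has 1 library, and for the same reason no library could be left out. Over 210 values of single genes in the K94/171R line under the alternatives, 0 called values changed sign, 199 kept their side of the threshold, 7 were no longer called and 4 became called. Of the 10 genes, 3 were called lower at 8 h against 0 h, 5 with no filter on low FPKM and 1 at a threshold of 2. At 16 h against 8 h, 4 were called higher. That count was 2 with a pseudocount of 1, 2 at a threshold of 2 and 3 with a filter at FPKM 5. It was 5 with no filter and 5 with the libraries rescaled to the same upper quartile of FPKM. For TXNIP in H460-ERT2-RUNX3, the change at 8 h was 0.88 when FPKM of each library was rescaled to 1 common sum, and the changes of 1.06 and 1.82 and the difference from H460 of 1.89 at 8 h were short of a threshold of 2. That rescaling lowered the median change of all genes in H460-ERT2-RUNX3 by 0.18 at 8 h and 0.52 at 16 h, and TXNIP at 16 h stood at 1.33 there. Over all genes of the K94/171R line, 423 were called at 8 h against 0 h, 310 at 16 h against 0 h and 473 at 16 h against 8 h. These counts were 1452, 1285 and 1487 with no filter, 178, 122 and 208 with a filter at FPKM 5, 191, 141 and 198 with a pseudocount of 1, and 69, 58 and 55 at a threshold of 2, as fewer or more genes pass by construction.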

Other observations

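Several listed genes stood close to the call in K94/171R cells without passing it, and they did so in both directions. HK2, the hexokinase of growing cells, had FPKM 4.28, 8.60 and 7.34 at 0, 8 and 16 h, a log2 change of 1.00 at 8 h when rounded. SQSTM1, the autophagy receptor p62, had FPKM 779, 1490 and 747, with changes of 0.94 at 8 h and, at 16 h against 8 h, a decrease just short of the call. BTG1, an antiproliferative gene, had FPKM 37.8, 18.9 and 28.9, a decrease just short of the call at 8 h. SQSTM1 and BTG1 thus had their extreme value at 8 h in opposite directions, high for SQSTM1 and low for BTG1.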
